A study of Homo sapiens with 2 samples.

Results

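Transfer RNA (tRNA) genes outside the large tRNA array of chromosome 6 were examined in an R-loop data set of OMM2.3 cells, an established line of uveal melanoma. An R-loop is an RNA:DNA hybrid with a displaced DNA strand. The members were all nuclear tRNA genes that RefSeq lists on chromosomes 1 to 22 and X of GRCh38, except those that start between 26 and 29 Mb of chromosome 6. The rule gave 299 of 443 nuclear tRNA entries. At 285 of these the GRCh38 sequence held a tRNA with the named anticodon, and at 14 it did not. The values below are for the 285.

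R-loops were mapped by CUT&Tag, in which an antibody brings a transposase to its target and cuts the DNA there. All cells expressed V5-tagged RNASEH1 that binds hybrids but is catalytically inactive, and a V5 antibody (Abcam) was used. There were 2 groups with 1 library each, OMM2.3 cells with a control hairpin (shCtrl) and OMM2.3 cells with a hairpin against APOBEC3B (shA3B), a cytidine deaminase. The data are a list of 562 regions, the authors' calls of differential R-loop peaks in the shA3B against the shCtrl library. It gives positions and neither counts nor a direction of change. "With a region" therefore means that a gene shares at least 1 base with a listed region, and the direction of change per region is not in the list. Sequencing depth is unknown here. Without replicates no test of the knockdown was possible, and the shares below describe the list. Their 95% Wilson intervals treat genes as independent, which neighbours within 1 region are not.

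Transfer RNAs carry amino acids to the ribosome, and their 3-base anticodon reads the codon. Genes that charge the same amino acid form an isotype, and genes with the same anticodon form a family. RNA polymerase III transcribes most of them from a promoter that lies inside the gene and consists of an A box and a B box, which are bound by TFIIIC. Transcription stops at a run of T shortly after the gene. The genes are short, present in many copies and often clustered, and RNA:DNA hybrids have been mapped over tRNA genes in yeast.

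Of the 285 genes, 115 had a region (40.4%, 95% Wilson interval 34.8 to 46.1). Each of the 115 lay wholly inside its region, and together they lay in 78 of the 562 regions. On chromosome 6 between 26 and 29 Mb, 42 of 144 tRNA genes had one (29.2%, 22.4 to 37.1). Over all nuclear tRNA genes the share was 36.6%. For comparison, 0.793% of the 62062 genes of GENCODE release 44 had a region within their first 73 bases, the median length of a tRNA gene. Among protein-coding genes this was 1.61%.

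The sequences below show genes of the same anticodon family, the first of each pair with a region and the second without. They are printed to show how few bases separate genes of both kinds in 1 family. In 3 pairs the gene without a region, TRG-GCC1-1, TRNAV-CAC and TRD-GTC2-1, lies in mostly repeated sequence, a class described below in which no gene had a region. All are from GRCh38, 5′ to 3′ on the strand of the gene, with the anticodon and the B box match in capitals. The B box was searched as GTTCNANNC on the strand of the gene, and 266 of 285 members (93.3%) held it. In the first 73 bases of 35116 RefSeq promoter windows, 0.814% held it on the same strand. The A box and the B box were among the marks that located the members, so their high shares are partly set by that rule. The pairs differ at 3 positions for cysteine GCA, 6 for lysine CTT, 2 for glycine GCC, 4 for valine CAC, 2 for aspartate GTC and 1 for glycine TCC.
TRC-GCA2-2: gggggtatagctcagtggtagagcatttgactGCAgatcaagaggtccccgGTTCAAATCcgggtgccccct
TRC-GCA1-1: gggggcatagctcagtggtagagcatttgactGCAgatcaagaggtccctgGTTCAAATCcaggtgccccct
TRK-CTT1-1: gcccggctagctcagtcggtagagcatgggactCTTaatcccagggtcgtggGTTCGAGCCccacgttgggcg
TRK-CTT6-1: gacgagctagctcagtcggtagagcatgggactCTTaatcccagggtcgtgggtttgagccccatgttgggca
TRG-GCC2-2: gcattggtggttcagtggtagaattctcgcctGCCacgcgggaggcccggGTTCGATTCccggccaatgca
TRG-GCC1-1: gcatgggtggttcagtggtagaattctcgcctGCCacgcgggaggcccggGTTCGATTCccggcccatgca
TRV-CAC1-5: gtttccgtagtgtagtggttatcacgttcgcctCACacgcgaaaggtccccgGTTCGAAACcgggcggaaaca
TRNAV-CAC: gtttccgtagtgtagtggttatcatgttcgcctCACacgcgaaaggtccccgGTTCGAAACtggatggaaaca
TRD-GTC1-1: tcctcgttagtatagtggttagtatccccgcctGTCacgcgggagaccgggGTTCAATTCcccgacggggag
TRD-GTC2-1: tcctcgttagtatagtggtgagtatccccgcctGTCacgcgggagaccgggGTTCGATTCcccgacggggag
TRG-TCC1-1: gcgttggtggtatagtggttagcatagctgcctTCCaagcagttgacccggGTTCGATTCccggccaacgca
TRG-TCC2-1: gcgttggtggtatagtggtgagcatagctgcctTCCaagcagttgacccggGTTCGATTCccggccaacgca

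In 5 of these 6 pairs both genes held the B box. TRK-CTT6-1 on chr18:46089305-46089377 had no match to it and no region, while TRK-CTT1-1 on chr14:58239895-58239967 lay in the narrowest region at a member, 199 bp. TRC-GCA2-2 on chr17:38867645-38867716 had a region of 2037 bp, and TRC-GCA1-1 on chr7:149310190-149310261 had none. TRG-TCC1-1 on chr19:4724070-4724141 shared a region of 1991 bp with TRV-CAC3-1. TRG-TCC2-1 on chr1:146037061-146037132 was 485 bp from the nearest region.

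A further 5 sequences are shown for isotypes at the ends of the range. Asparagine genes had no region, and TRN-GTT2-2 carries their most common sequence. TRX-CAT1-1 encodes the initiator methionine tRNA, which starts translation. The selenocysteine tRNA reads a stop codon and is encoded by TRU-TCA1-1, with TRU-TCA2-1 as a second, shorter entry. TRT-TGT2-1 was the only threonine gene without a region.
TRN-GTT2-2: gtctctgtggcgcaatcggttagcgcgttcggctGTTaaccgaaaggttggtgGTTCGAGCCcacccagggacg
TRX-CAT1-1: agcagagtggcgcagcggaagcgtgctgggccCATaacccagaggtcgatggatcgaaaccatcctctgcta
TRU-TCA1-1: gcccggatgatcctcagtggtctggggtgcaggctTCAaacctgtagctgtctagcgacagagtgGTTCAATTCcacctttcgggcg
TRU-TCA2-1: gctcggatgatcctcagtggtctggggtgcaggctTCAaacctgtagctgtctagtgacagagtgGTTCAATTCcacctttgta
TRT-TGT2-1: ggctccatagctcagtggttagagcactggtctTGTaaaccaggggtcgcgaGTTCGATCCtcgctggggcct

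TRX-CAT1-1 on chr1:153671250-153671321 had no match to the B box letters and had a region of 789 bp. The other initiator gene, TRX-CAT1-8 on chr17:82494721-82494792, had a region of 1323 bp. Both selenocysteine genes were without one. TRU-TCA1-1 on chr19:45478601-45478687, in an intron of ERCC1, was 1308451 bp from the nearest region. TRU-TCA2-1 on chr22:44150657-44150740, in an intron of PARVB, was 1487244 bp away. TRT-TGT2-1 on chr1:222465005-222465077 was intergenic and 3843368 bp from the nearest region.

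Repeated sequence was described first, since the authors filtered reads on mapping quality. Each gene with 500 bp on each side was cut into words of 31 bases, and the share of words that occur once in the whole assembly was taken. Of the 67 genes with under 50% unique words, 0 had a region, which by the Wilson interval allows a share of up to 5.42%. Of the 218 with at least 50%, 115 had one (52.8%, 46.1 to 59.3). The share with a region was 8 of 31 at 50 to 75% unique words, 26 of 53 at 75 to 90% and 81 of 134 above 90%. Read depth was not in the list, so the part of repeated sequence in the missing regions was not tested. Shares are therefore given below for all genes and for these 218, which are called genes with unique surroundings. Of the tRNA genes of chromosome 6 between 26 and 29 Mb, 87 had unique surroundings and 42 of these had a region. That share, 48.3% (38.1 to 58.6), had an interval that overlapped the interval of the 218.

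**Figure D1:**
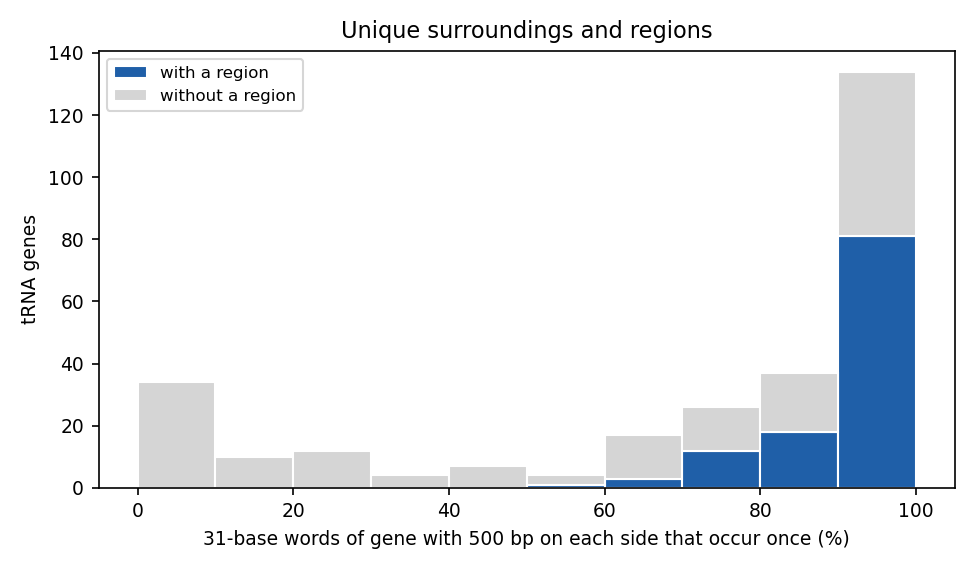
Number of tRNA genes (vertical axis) by the percentage of 31-base words, in the gene with 500 bp on each side, that occur once in the assembly (horizontal axis, bins of 10 percentage points). Blue marks genes with a region and grey genes without, and no gene under 50% had a region.

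Isotypes covered the whole range of shares. Of 22 isotype classes, 20 had at least 1 gene with a region and 9 had one at 50% of genes or more. The initiator methionine genes among the members (2 of 2) and threonine genes (10 of 11, 90.9%, 62.3 to 98.4) stood highest. Tryptophan followed with 4 of 5, arginine with 11 of 15, lysine with 14 of 21 and proline with 12 of 18. Alanine and phenylalanine had 6 of 10 and 3 of 5, and serine had 5 of 9. All genes of tryptophan, arginine, lysine, proline, phenylalanine, serine and threonine had unique surroundings.

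Isotypes with many repeated genes stood in the middle of the range and, with asparagine and isoleucine, among the lowest. Tyrosine had a region at 4 of 9 genes, leucine at 9 of 22, aspartate at 4 of 10, valine at 7 of 21, glutamate at 4 of 14 and glycine at 8 of 29. Among genes with unique surroundings these became 9 of 13 for leucine, 4 of 5 for aspartate, 7 of 13 for valine, 4 of 8 for glutamate and 8 of 18 for glycine. Tyrosine did not change, as all 9 were unique. Elongator methionine genes, which serve inside the coding sequence, had a region in 1 of 4 cases.

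The lowest shares were those of asparagine (0 of 21, 0 to 15.5), selenocysteine (0 of 2), histidine (1 of 8), isoleucine and glutamine (2 of 10 each) and cysteine (6 of 29, 20.7%, 9.85 to 38.4). With unique surroundings histidine had 1 of 6, isoleucine 2 of 5 (40%, 11.8 to 76.9), glutamine 2 of 7 and cysteine 6 of 28. For asparagine, 17 of the 21 genes were on chromosome 1 and 8 had unique surroundings, of which 0 had a region (0 to 32.4%). Among these 8, TRN-GTT2-2, TRN-GTT2-3 and TRN-GTT2-4 had over 95% unique words. Of all 21, 20 had the B box letters. TRN-GTT2-2 was 5630 bp from the nearest region, in the same cluster as 2 genes that had one.

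Cysteine genes split by chromosome. All 5 on chromosome 17 had a region, 0 of the 18 on chromosome 7 had one (0 to 17.6%), and elsewhere it was 1 of 6. The chromosome 7 genes all had unique surroundings, between 60.7% and 98.8% unique words, and 17 of the 18 held the B box letters. The gene with a region elsewhere was TRC-GCA9-1 on chromosome 3. Its sequence is shared by 4 members, and the copies TRC-GCA9-2, TRC-GCA9-3 and TRC-GCA9-4 on chromosome 7 had no region, with 94.6% to 95.8% unique words. Intervals of neighbouring isotypes in this order overlapped, and only classes far apart in it, such as threonine and cysteine, had intervals that did not. The cysteine interval counts the 18 neighbouring genes of chromosome 7 as independent. The part of this block in the difference from threonine was not tested.

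**Figure D2:**
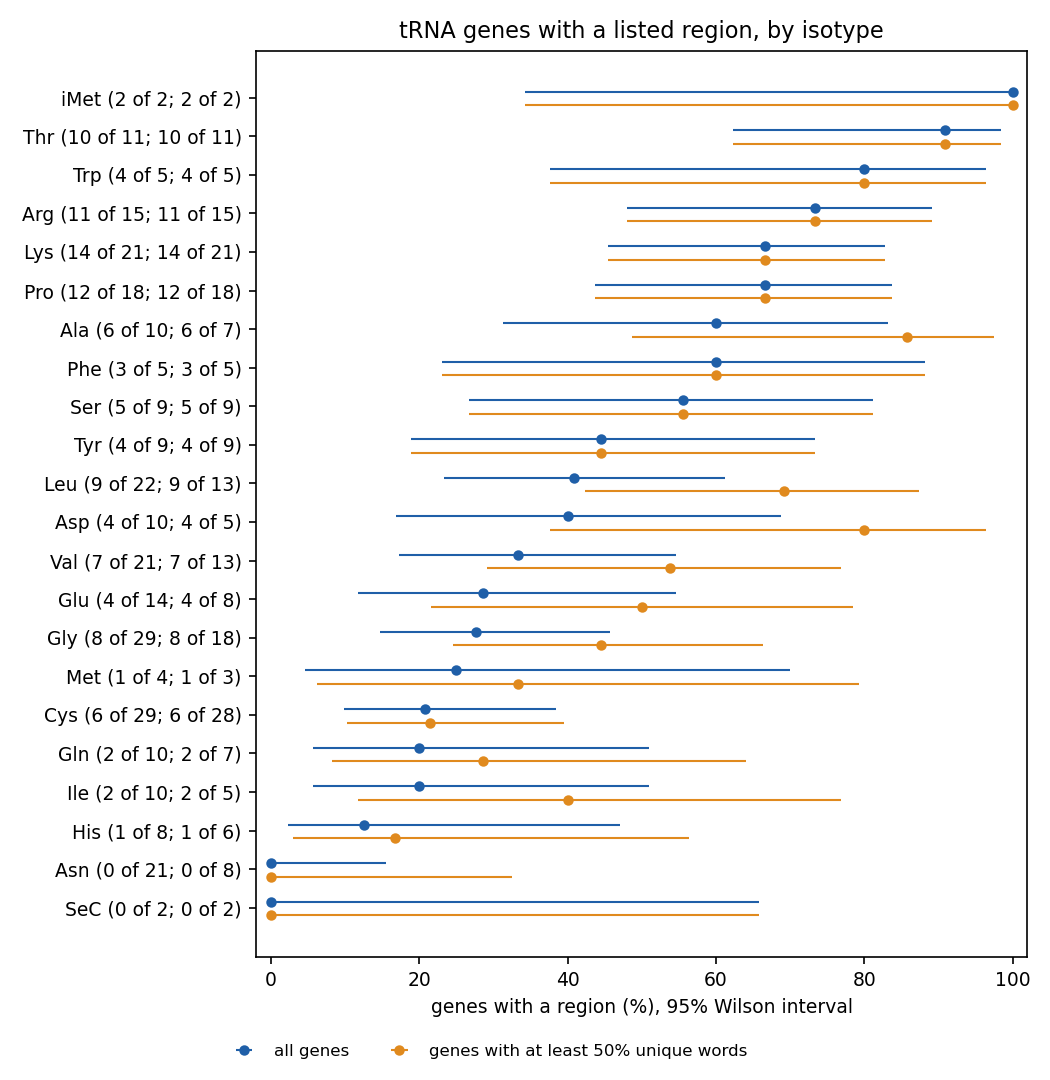
Percentage of tRNA genes with a region (horizontal axis) for each isotype, with 95% Wilson intervals, for all genes in blue and for genes with at least 50% unique words in orange. Both pairs of counts stand beside each name; threonine and initiator methionine lie at the top, asparagine and selenocysteine at 0.

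The 49 anticodon families were compared next. In 41 of them at least 1 gene had a region. Among families of 3 or more genes, every gene had one in alanine TGC (3 genes), arginine CCT (4), leucine TAG (3), serine GCT (3) and threonine AGT (4). None had one in asparagine GTT (21 genes) and isoleucine GAT (3 genes), and no isoleucine GAT gene had unique surroundings. Families of a single gene were alanine CGC, which had a region, and serine TGA and tyrosine ATA, which did not. The main tyrosine family, GTA, had a region at 4 of 8 genes.

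Families of the same isotype differed within their isotype. In arginine, which has 5 families, CCT had 4 of 4, CCG and TCG had 2 of 2 each, ACG had 1 of 2 and TCT had 2 of 5. In leucine, TAG had 3 of 3, AAG 3 of 6, CAG 2 of 8, CAA 1 of 3 and TAA 0 of 2. CAG changed most with the surroundings, as 2 of its 8 genes were unique and both had a region. Lysine CTT had 9 of 13 and lysine TTT 5 of 8, both with unique surroundings throughout. The families hold few genes, so these differences within an isotype are descriptions of counts.

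Genes with an identical sequence did not always share their state. The 285 genes had 177 distinct sequences, and 82 of these had a region at 1 or more copies. There were 40 sequences with 2 or more copies, which covered 148 genes. Of the 40, 13 had a region at every copy, 11 at none and 16 at some. Every member copy had one for the sequences of TRK-CTT2-1 and TRK-TTT3-1, with 4 such copies each. Over all nuclear tRNA genes each of these 2 sequences has 5 copies. The TRP-AGG2-1 sequence had a region at 5 of 7 copies, TRP-TGG3-1 at 3 of 5 and TRC-GCA2-1 at 3 of 4, all with unique surroundings. The TRN-GTT2-1 sequence had none at 8 copies, 4 of them with unique surroundings. Genes with an identical copy anywhere among nuclear tRNA genes had a region in 65 of 154 cases (42.2%, 34.7 to 50.1), and those without a copy in 50 of 131 (38.2%, 30.3 to 46.7). With unique surroundings these were 65 of 107 (60.7%, 51.3 to 69.5) and 50 of 111 (45.0%, 36.1 to 54.3), with overlapping intervals.

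The next question was whether genes in small clusters differ from isolated genes. Genes up to 20 kb apart were joined, which gave 141 loci, 44 clusters of 2 to 26 genes and 97 isolated genes. In clusters 92 of 188 genes had a region (48.9%, 41.9 to 56.0), and among isolated genes 23 of 97 (23.7%, 16.4 to 33.1). With unique surroundings the shares were 92 of 140 (65.7%, 57.5 to 73.1) and 23 of 78 (29.5%, 20.5 to 40.4). The intervals did not overlap in either case. With a joining distance of 100 kb they did, at 44.4% (37.8 to 51.3) for clustered and 29.5% (20.5 to 40.4) for isolated genes. The clustered genes lay in 55 regions and the isolated genes in 23, so that 1 region could count for several clustered genes. Counted by locus, 49 of 141 had a region (34.8%, 27.4 to 42.9), 26 of 44 clusters and 23 of 97 isolated genes. A cluster counts here if any of its genes had a region. Clusters thus have more chances than isolated genes by construction, and these 2 shares are not like measures.

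The comparison was repeated within subsets of the genes with unique surroundings. Off chromosomes 1 and 17 the shares with unique surroundings were 55 of 94 for clustered genes (58.5%, 48.4 to 67.9) and 18 of 58 for isolated genes (31.03%, 20.6 to 43.8). Where the nearest protein-coding transcription start site (TSS) was beyond 10 kb they were 43 of 77 (55.8%, 44.7 to 66.4) and 10 of 43 (23.3%, 13.2 to 37.7). Among genes with a full set of the sequence marks described below they were 83 of 116 (71.6%, 62.8 to 79.0) and 21 of 60 (35%, 24.2 to 47.6). The intervals did not overlap in any of these 3 subsets. Among genes missing a mark they did, with 9 of 24 clustered genes (37.5%, 21.2 to 57.3) and 2 of 18 isolated genes (11.1%, 3.10 to 32.8).

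Most clusters were in one state throughout. Of the 44, 17 had a region at every gene, 9 at some and 18 at none, the last holding 51 genes. In most of the 17 a single region held every gene, so their genes share a state by construction. Of the 44, 37 held at least 1 gene with unique surroundings, and the rest are all among the 18. On chromosome 17 near 8.1 to 8.2 Mb, 3 clusters of 7, 4 and 7 genes had a region at every gene. They include TRT-AGT5-1, TRS-CGA1-1 and TRG-GCC2-6 in the first, TRW-CCA3-3 and TRI-AAT5-5 in the second, and TRW-CCA1-1 and TRD-GTC2-11 in the third. On chromosome 12 all 5 genes from TRA-TGC3-2 to TRA-TGC4-1 had one. On chromosome 11, 7 of 8 genes had one, and the exception, TRL-TAA3-1, lay 133 bp from a region.

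Mixed clusters changed state along their length. In the chromosome 5 cluster of 13 genes, the first 4 by position (TRV-AAC1-2, TRV-AAC1-3, TRV-CAC1-4 and TRL-AAG1-3) had no region and the other 9 had one, in 5 regions. On chromosome 14 a cluster of 7 genes had a single region of 3638 bp at its last 3 genes, TRT-TGT5-1, TRY-GTA5-5 and TRP-TGG3-2, and none at the 4 tyrosine GTA genes before them. A second cluster on chromosome 14 had 6 of 7, with TRP-TGG1-1 as the exception. The chromosome 16 cluster of 14 genes, rich in lysine CTT and proline genes, had 9 genes in 7 regions, interspersed with TRK-CTT8-1, TRP-CGG1-2, TRP-TGG3-4, TRP-TGG3-5 and TRP-AGG2-8, which had none.

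The remaining large clusters were nearly or wholly without regions. The largest, 26 genes on chromosome 1, had a region at 2, TRE-TTC4-2 and TRG-TCC4-1, and 4 of its genes had unique surroundings. A cluster of 6 genes on chromosome 6 outside the large array had 0, with unique words between 28% and 49%. On chromosome 7 a cluster of 6, with 5 cysteine genes and TRS-AGA5-1, had 0 although all 6 had unique surroundings.

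**Figure D3:**
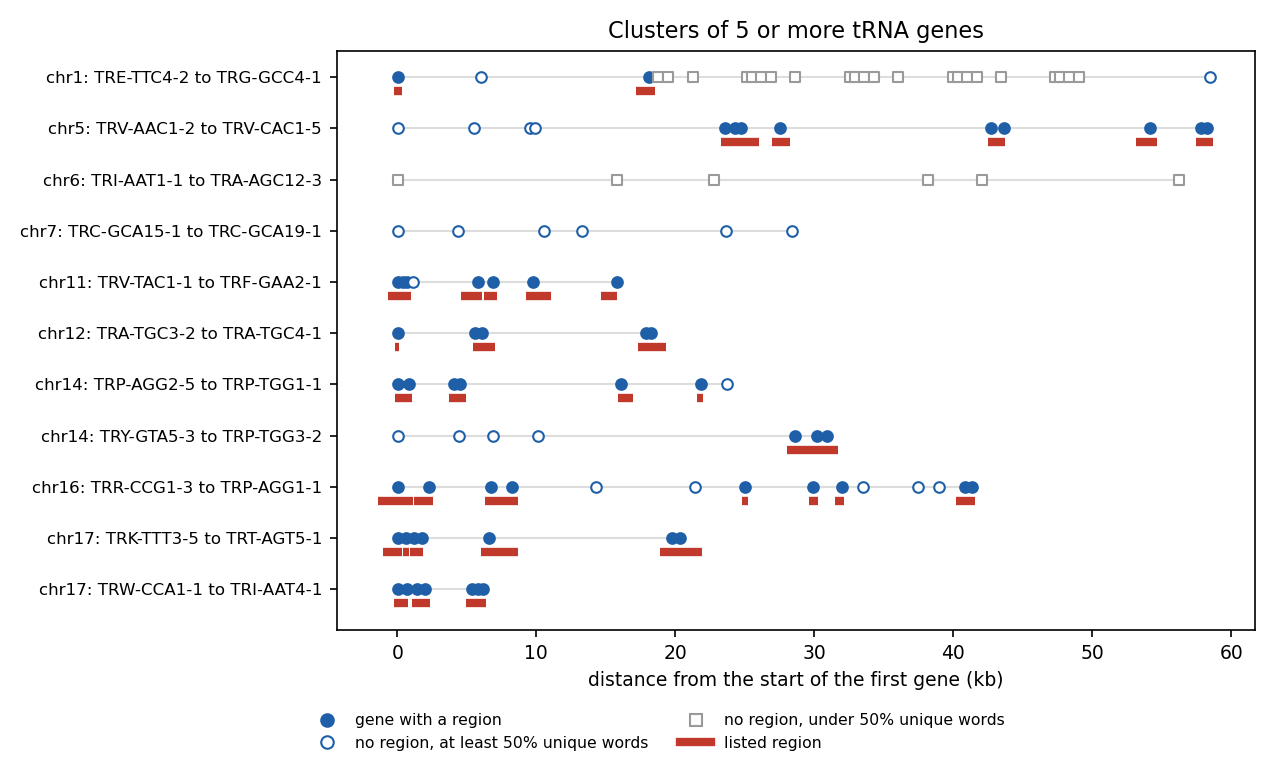
Genes of the 11 clusters of 5 or more, placed by distance in kb from the start of the first gene of each cluster, with listed regions as red bars drawn below the genes. Filled circles are genes with a region, open circles genes without one but with at least 50% unique words, and grey squares genes without one and under 50%; the chromosome 17 clusters are filled throughout and the chromosome 7 cluster is open throughout.

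Shares also differed by chromosome. On chromosome 17, 30 of 33 genes had a region (90.9%, 76.4 to 96.9), and TRG-CCC3-1, TRN-GTT2-5 and TRQ-TTG1-1 did not. On chromosome 7 it was 1 of 22, TRR-CCT4-1 in an intron of LUC7L2, and all 22 had unique surroundings. The region at TRR-CCT4-1 also held the start of LUC7L2. On chromosome 1 it was 12 of 85, and 12 of the 34 with unique surroundings.

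The 23 isolated genes with a region came from many isotypes. They included both initiator methionine genes among the members, TRE-TTC2-1 and TRE-TTC2-2 for glutamate, TRK-CTT1-1 and TRK-CTT1-2 for lysine, TRT-CGT2-1, TRT-CGT4-1 and TRT-AGT1-3 for threonine and TRL-TAG3-1 and TRL-AAG2-4 for leucine. TRE-TTC2-2 on chromosome 15 was 217062 bp from the nearest protein-coding TSS and had a region of 756 bp. TRT-CGT2-1 and TRT-CGT4-1 were 85563 and 61966 bp from one, with regions of 863 and 1310 bp.

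Regions at members had a median width of 1316.5 bp (95% rank interval 1188 to 1555), and ranged from 199 to 5176 bp. The 49 with 1 tRNA gene had a median of 1043 bp (840 to 1310), and the 29 with 2 or more had 1817 bp (1451 to 2244). Regions at tRNA genes of chromosome 6 between 26 and 29 Mb had 906 bp (565 to 1359, 36 regions) and regions at no tRNA gene 977.5 bp (906 to 1041, 448 regions). The interval of single-gene member regions thus overlapped both.

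The widest region, 5176 bp on chr17:8185935-8191110, held TRW-CCA3-3, TRS-GCT4-3, TRT-AGT1-1 and TRI-AAT5-5 and the start of BORCS6. The next, 3638 bp on chr14:20681141-20684778, held 3 tRNA genes named above and the starts of ANG and RNASE4, which encode ribonucleases. TRS-CGA1-1 and TRT-AGT5-1 shared 2982 bp on chr17:8138091-8141072. TRL-AAG2-1, TRV-AAC2-1 and TRP-TGG3-1 shared 2752 bp on chr5:181187441-181190192. The fifth, 2661 bp on chr17:8125201-8127861, held TRG-GCC2-6 alone.

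Position was measured in the 49 regions with 1 tRNA gene, in the direction of transcription. The region extended past the gene on both sides in all 49. A median of 536 bp (309 to 602) lay before the gene and 377 bp (247 to 565) after it. The region midpoint was a median of 20.5 bp upstream of the gene midpoint, written as -20.5 bp (-118 to 161.5), with single values from -608 to 778.5 bp. It was downstream in 23 of 49. No side was thus favoured beyond the interval.

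**Figure D4:**
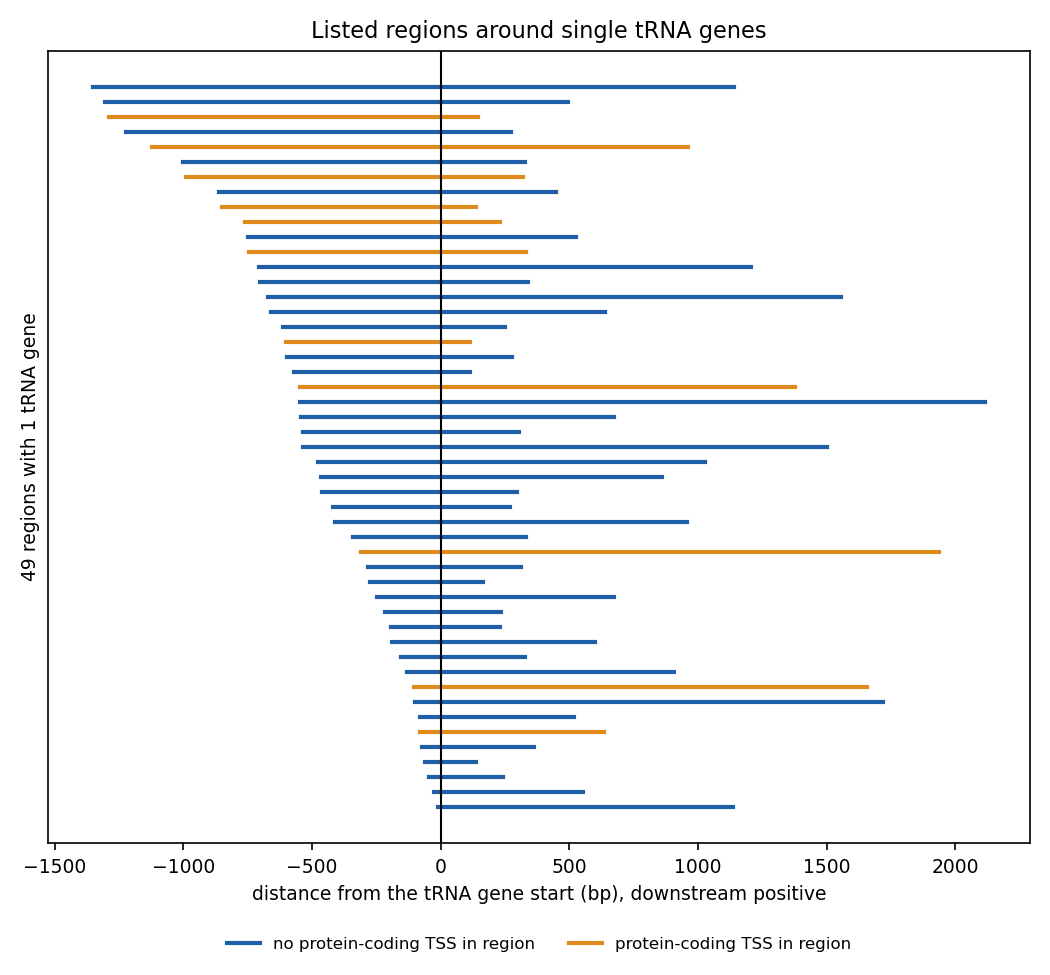
Extent of the 49 regions with 1 tRNA gene, in bp from the gene start with downstream positive (horizontal axis), 1 line per region, ordered by the length before the gene. Orange regions hold a protein-coding TSS and blue ones do not, and every line crosses the gene start.

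Neighbouring genes of RNA polymerase II were examined next. A protein-coding TSS lay in 18 of the 78 member regions (23.1%, 15.1 to 33.6), against 317 of 439 regions at no tRNA gene on these chromosomes (72.2%, 67.8 to 76.2). The 18 regions held 28 of the 115 genes. They include TRR-TCG1-1 with POLG, the mitochondrial DNA polymerase, TRC-GCA4-1 with LASP1, TRS-GCT4-2 with KNL1, a kinetochore protein, and TRL-AAG2-4 with POLR3E, a subunit of RNA polymerase III. In these 18, tRNA and protein-coding signal cannot be told apart. A TSS of any annotated gene lay in 29 of the 78, and 24 of the 78 had a protein-coding TSS within 1 kb. Some regions outside the 18 thus also hold or adjoin a TSS. The other 60 member regions had a median width of 1305 bp (1035 to 1547).

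Distance to a protein-coding TSS varied with state. With one within 1 kb, 27 of 51 genes had a region (52.9%, 39.5 to 65.9), at 1 to 10 kb 35 of 49 (71.4%, 57.6 to 82.2), and beyond 10 kb 53 of 185 (28.6%, 22.6 to 35.5). With unique surroundings these were 27 of 50, 35 of 48 and 53 of 120. The median distance was 7947 bp (3906 to 11654) for genes with a region and 22049 bp (15489 to 31824) for genes of unique surroundings without. By annotation, 66 of 156 intergenic genes had a region, 27 of 81 inside a lncRNA gene only, 16 of 38 in an intron of a protein-coding gene and 6 of 10 in an exon of one. With unique surroundings these were 66 of 126, 27 of 47, 16 of 35 and 6 of 10, so that the lncRNA share went from the lowest (33.3%) to 57.4%, above intergenic (52.4%) and intronic genes (45.7%). Their intervals overlapped. Among genes inside a protein-coding gene, 17 of 36 on the host strand had one and 5 of 12 on the opposite strand.

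Sequence marks of a tRNA gene were compared as the last property. A run of TTTT within 50 bp after the gene was present in 267 genes (93.7%), of which 114 had a region, while 1 of the 18 without it had one, TRT-AGT5-1. In the first 50 bases of the RefSeq promoter windows 19.0% held TTTT. An A box, one of the locating marks, was searched in the genes as a letter pattern near their start. It was found in 270 genes, of which 113 had a region, against 2 of 15 without a match. Of the promoter windows, taken as their first 73 bases, 9.66% held a match. A missing match to the A box or B box letters does not show that a gene lacks a working box. The 15 genes without an A box match include all 8 histidine genes, which share 1 sequence and of which 1 had a region. Both selenocysteine genes are also among the 15. All 15 count below among the genes missing 1 or more marks. All 7 pairs of the acceptor stem formed in 264 genes, of which 112 had a region, against 3 of 21. The B box letters gave 110 of 266 against 5 of 19. Genes with all 4 marks had a region in 104 of 223 cases (46.6%, 40.2 to 53.2), and those missing 1 or more in 11 of 62 (17.7%, 10.2 to 29.04). With unique surroundings these were 104 of 176 (59.1%, 51.7 to 66.1) and 11 of 42 (26.2%, 15.3 to 41.1).

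GC content of 250 bp on each side had a median of 49% (48.4 to 52) at genes with a region and 48.8% (46.6 to 51.2) at unique genes without. The GC intervals overlapped. The observed to expected ratio of CpG, taken over the gene with 250 bp on each side, was 0.792 (0.735 to 0.803) and 0.579 (0.487 to 0.656). These CpG intervals did not overlap. The unique genes without a region include the 18 cysteine genes of chromosome 7, most of them below 0.579. The part of this block in the difference was not tested. Genes long enough for an intron had a region in 7 of 16 cases, and the others in 108 of 269.

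**Figure D5:**
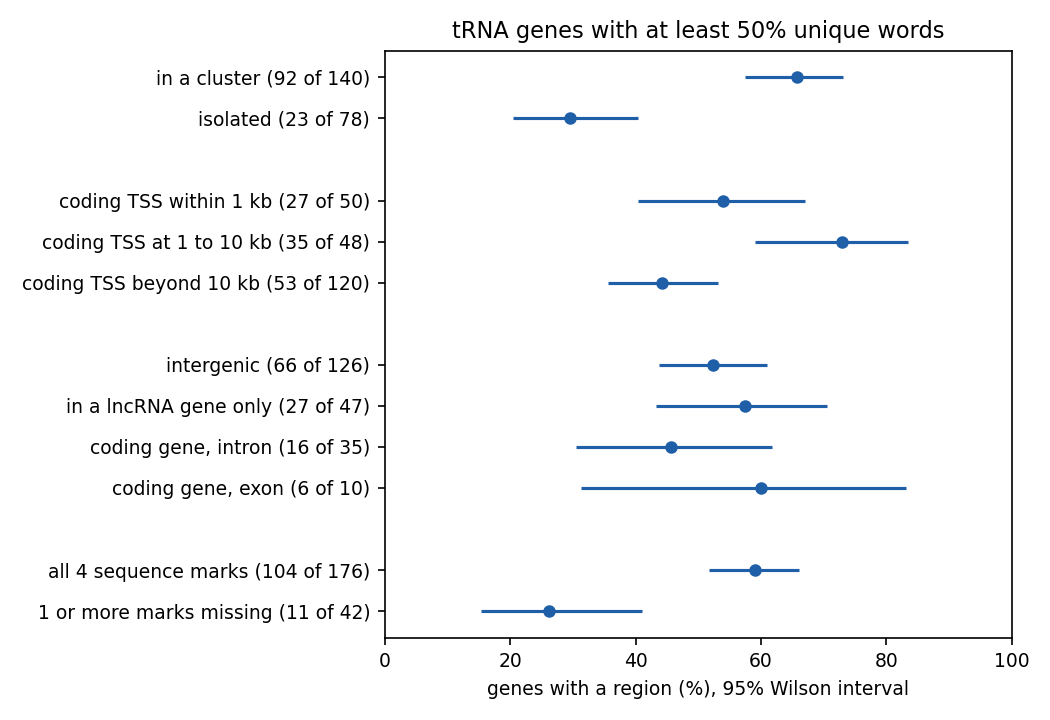
Percentage of tRNA genes with a region (horizontal axis, 95% Wilson intervals) among genes with at least 50% unique words, by clustering, distance to a protein-coding TSS, annotation and sequence marks. Counts stand beside each name; clustered genes and genes with all 4 marks lie above isolated genes and genes missing a mark.

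Most genes without a region were far from any. Of these 170 genes, 107 were over 100 kb from the nearest region, and the median distance was 362830 bp. Of the 103 with unique surroundings, 75 were. Another 10 were within 1 kb, at 133 bp for TRL-TAA3-1, 173 for TRD-GTC2-1, 175 for TRG-GCC2-1, 271 for TRL-CAG1-6, 293 for TRL-CAA6-1, 324 for TRP-TGG3-4, 485 for TRG-TCC2-1, 596 for TRV-AAC1-1, 881 for TRL-CAG1-1 and 978 for TRC-GCA6-1. Of these 10, 4 had under 50% unique words.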

How the data were processed

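CUT&Tag against V5-tagged inactive RNASEH1 was done in OMM2.3 cells, with 1 shCtrl and 1 shA3B library grouped by sample title. Per the methods and processing notes of the study, the authors trimmed reads with Cutadapt 4.1, aligned them to GRCh38 with Bowtie2 2.2.5 in local mode, removed duplicates with Picard 2.27.3, kept a mapping quality of at least 2 with Samtools 1.15.1, called peaks with SEACR 1.3 and compared the libraries with edgeR. Normalization, dispersion and thresholds of that comparison are not given in the sources used here. The deposited list has 3 columns with no count, score or p-value.

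tRNA genes came from RefSeq (GRCh38), which gives no strand in the table used. A gene was located when its position held at least 3 of 4 marks (5 of 7 acceptor stem pairs, a T loop, the anticodon in the middle and an A box), or the anticodon and a B box, and its strand was taken from these. The 14 entries not located had no region. Starts of listed regions were converted to 1-based positions, and any shared base counted as overlap. TSSs and hosts came from GENCODE release 44, and an exon of any transcript of a protein-coding gene counted as exon. Word uniqueness was counted over the whole assembly, alternate contigs included. Genes over 80 bp (95 bp for leucine, serine and selenocysteine) were called long enough for an intron. Intervals are Wilson intervals for shares and binomial rank intervals for medians, both at 95%. The scripts were tested on simulated data. Python 3.11.15, pandas 2.3.3, scipy 1.17.1 and pysam 0.24.0 were used.

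The genes, lists and comparisons were chosen with earlier results of these data known. Genes were named by rule: all isotypes, anticodon families of 3 or more with all or no genes, clusters of 5 or more, the 5 widest regions, initiator and selenocysteine genes, genes within 1 kb of a region and single-gene families. Sequences were printed for 6 families with both kinds, 1 gene of each kind, taking the first by symbol. The other printed sequences and other named genes were chosen after their values were seen. Alternatives covered the overlap rule, region width, copies, uniqueness, TSSs, B box and joining distance (5 or 100 kb).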

Additional observations from a re-analysis of the deposited data

How the results depend on the processing

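No paired analysis was possible because there was 1 library per group. The alternatives gave 54 values for 8 results, of which 35 lay inside the 95% interval of the reported value and 19 outside. No called direction turned. The offset of the region midpoint changed sign within its interval, to 15 bp from the gene start and 95.25 bp in the wider 50% of regions. The share of all genes with a region (40.4%) was 30.9% with the wider 50% of regions, 30.5% without regions that hold a protein-coding TSS, 52.8% for unique surroundings, 46.3% with each distinct sequence once, 51.5% without chromosome 1 and 33.7% without chromosome 17. For clustered genes (48.9%) these were 40.4% with wider regions, 38.8% without TSS regions, 65.7% for unique surroundings, 62.3% without chromosome 1 and 40.7% without chromosome 17, and 56.9% with 5 kb joining. Isolated genes (23.7%) moved to 12.4% with wider regions and 14.4% without TSS regions, and loci (34.8%) to 25.5% and 24.8%. The median width moved to 1043 bp for regions with 1 tRNA gene and 1751 bp for the wider 50%, and the share of regions with a TSS to 37.2% with any annotated TSS. Fewer regions lower a share by construction, and for the other moves the cause was not tested. Clustered genes stayed above isolated genes in each alternative that gave both, but with 100 kb joining the intervals overlapped, at 44.4% (37.8 to 51.3) and 29.5% (20.5 to 40.4). The alternatives with all 299 entries (38.5%), each sequence once, and without chromosome 1 or 17 were chosen after seeing the data. Depth is unknown, so a missing region does not show a missing R-loop.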

Other observations

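The order of the lines in the list is not documented. Of its first 100 lines 38 were regions at the tRNA genes described above, and another 17 were at tRNA genes of chromosome 6 between 26 and 29 Mb. Among the last 100 lines 6 were regions at the tRNA genes described above. Over all 562 lines, 78 were regions at the tRNA genes described above and 36 at those of chromosome 6 between 26 and 29 Mb.

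Of the 266 genes with a B box match, the fifth base was G in 181 and A in 84. A region was present at 74 of the 181 (40.9%, 33.98 to 48.2) and at 36 of the 84 (42.9%, 32.8 to 53.5), and these intervals overlap. With unique surroundings the order turned, with 74 of 129 (57.4%, 48.7 to 65.6) and 36 of 77 (46.8%, 36.03 to 57.8), and the intervals again overlap. By cluster size, 21 of 42 genes in clusters of 2 had a region, 16 of 40 in clusters of 3 or 4, and 55 of 106 in larger ones. With unique surroundings these were 21 of 31, 16 of 31 and 55 of 78.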
